A study of Mus musculus with 13 samples.

Results

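Clca4b colonocytes are colon epithelial cells that carry RNA of the chloride channel accessory gene Clca4b, of the epidermal-type transglutaminase Tgm3 or of the nongastric proton pump Atp12a. They were taken from droplet-based single-cell RNA-seq libraries in which each unique molecular identifier (UMI) stands for 1 captured transcript. Members were chosen by measured counts in each barcode: no fewer than 500 UMIs from 200 genes or more, mitochondrial UMIs below 25%, at least 10 UMIs of Epcam, Krt8 and Krt18 together, no UMI of the leukocyte gene Ptprc, fewer than 10 UMIs of the goblet mucin Muc2, and at least 5 UMIs of Clca4b, Tgm3 and Atp12a together, which also had to exceed those of Cyp2c55, Tmigd1 and Slc51a. The rule found 1919 members among 118892 retained barcodes, of which 32247 were epithelial by the same keratin and Ptprc conditions. Of the members, 1242 came from tumors and 677 from mucosa.

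The libraries came from 10 tumors of the colon and from the normal mucosa beside them (3 samples) of ApcMin/+; p16cis/cis mice on the C57BL/6J background. ApcMin is a germline truncating allele of the Wnt pathway inhibitor Apc, and p16cis is an inserted sequence that draws methylation to the promoter of the cell cycle inhibitor gene Cdkn2a. All 3 mice carried both alleles and all were fed the diet supplemented with folate and its cofactors, so that neither the alleles nor the diet could be compared. Mouse A (24 weeks) gave mucosa 2 and tumors 5 to 8, mouse B (23 weeks) gave mucosa 3 and tumors 9 and 10, and mouse C (20 weeks) gave mucosa 1 and tumors 1 to 4. Mucosa was dissociated with EDTA and TrypLE and tumors with an enzymatic tumor kit, so tissue and dissociation cannot be told apart in any comparison below. Tumors of 1 mouse are not separate animals, and p-values over libraries measure the spread between libraries.

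The absorptive cells of the colon surface take up salt, water and short-chain fatty acids. They do so through a set of exchangers, channels and carbonic anhydrases that are switched on as cells leave the crypt. The surface epithelium also faces the bacteria of the lumen and makes secreted defence proteins, among them the serum amyloid A protein Saa1 and the Ly6-domain protein Lypd8. Ly6g, best known as a neutrophil surface marker in the mouse, belongs to the same Ly6 family.

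The libraries held between 6537 and 15049 deposited barcodes and between 57221300 and 116133079 UMIs. In the members, the median depth of a cell lay between 8189 and 12713 UMIs in the mucosa libraries and between 8508 and 25331 UMIs in the tumor libraries. The sex labels went against the counts: 7 of 13 libraries are labelled female, yet every library held between 6949 and 12845 UMIs of the Y-linked genes Ddx3y, Eif2s3y, Kdm5d and Uty, and at most 10 of Xist. The sex label was therefore not used. Of the members, 57 (2.97%) shared a barcode sequence with a retained barcode of another library, against 2.83% of all retained barcodes, and 0 of these were members in both. A doublet score marked 28 of the tumor members (2.25%) and 43 of the mucosa members (6.35%). At the threshold of the rule, 74 tumor and 32 mucosa members had exactly 5 UMIs of the 3 defining genes, and 68 tumor and 28 mucosa barcodes missed membership with 4.

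Of the 5 genes that name the cells, Saa1 and Ly6g played no part in the rule. Reference sequence is shown for them, the 250 bases before the RefSeq start of Saa1, of its neighbour Saa2 and of Ly6g, because Saa1 and Saa2 are close copies with very different levels and because Ly6g is read here outside neutrophils. All are 5′ to 3′ on the strand of the gene, on GRCm38.p6: chr7:46742981-46743230 (minus strand) for Saa1, chr7:46751583-46751832 (plus strand) for Saa2 and chr15:75155011-75155260 (plus strand) for Ly6g. Capitals mark the matches to 4 short motifs, searched on both strands. They were a C/EBP type motif, TTGCNNAA, a posterior HOX and CDX type motif, CAATAAA, the TATA box, TATAAA, and an NF-kB type motif, in which 3 guanines and 2 cytosines stand 5 bases of any kind apart.
Saa1: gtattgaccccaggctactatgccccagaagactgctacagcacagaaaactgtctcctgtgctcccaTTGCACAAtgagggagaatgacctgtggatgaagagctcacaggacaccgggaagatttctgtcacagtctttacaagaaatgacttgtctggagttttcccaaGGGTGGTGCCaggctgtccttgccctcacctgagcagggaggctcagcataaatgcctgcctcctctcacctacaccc
Saa2: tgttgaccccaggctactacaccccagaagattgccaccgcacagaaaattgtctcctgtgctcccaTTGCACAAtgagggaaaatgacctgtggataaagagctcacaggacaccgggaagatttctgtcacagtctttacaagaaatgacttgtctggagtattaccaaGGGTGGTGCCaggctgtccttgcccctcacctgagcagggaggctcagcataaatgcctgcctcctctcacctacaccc
Ly6g: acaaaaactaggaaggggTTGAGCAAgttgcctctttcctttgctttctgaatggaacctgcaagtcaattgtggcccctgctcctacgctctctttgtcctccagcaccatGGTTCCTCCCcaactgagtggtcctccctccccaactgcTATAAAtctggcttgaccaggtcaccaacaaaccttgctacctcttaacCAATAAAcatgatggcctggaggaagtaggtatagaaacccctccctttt
The Saa1 and Saa2 stretches were identical at 238 of 251 aligned positions (94.8%), and both held TTGCACAA and GGGTGGTGCC, the former 182 and 183 bases before the start and the latter 78 and 79 bases before it. The Ly6g stretch held CAATAAA 50 bases and TATAAA 99 bases before the start, and 1 match each to TTGCNNAA and the NF-kB type motif. Among 32851 reference promoters cut to the same length, 9.56% held TTGCNNAA, 45.8% held the NF-kB type motif, 4.20% held CAATAAA and 12.4% held TATAAA. These matches describe letters only and say nothing about which factor was bound. None of the matches overlaps another.

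In GENCODE vM21, on GRCm38, Clca4b lies on chromosome 3 from 144910921 to 144932529 (minus strand), Saa1 on chromosome 7 from 46740497 to 46742980 (minus strand), Tgm3 on chromosome 2 from 130012349 to 130050399 (plus strand), Atp12a on chromosome 14 from 56365068 to 56388550 (plus strand) and Ly6g on chromosome 15 from 75155240 to 75159126 (plus strand). Saa2 lies next to Saa1 in the opposite orientation, from 46751790 to 46754313. For Ly6g and Saa2 the GENCODE start lies within the stretch printed above. The motif distances there count from the RefSeq start.

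Members were found in every library. Mucosa 1 to 3 held 66, 402 and 209, which were 2.53%, 5.15% and 3.67% of their epithelial barcodes. The tumors held between 42 and 242, or 2.63% to 20.7% of epithelial barcodes with a median of 6.26%. In 9 of 10 tumors the share was above that of the mucosa of the same mouse, tumor 5 being the exception at 3.68% against 5.15%. Averaged within mice and then over the 3 mice, tumors had 8.70% ± 3.38 (SD, n = 3 mice) and mucosa 3.78% ± 1.32 (SD, n = 3), a difference of 4.92 percentage points. By the exact two-sided permutation test within mice this did not pass (p = 0.28, 75 assignments, smallest possible p 0.0133). The 3 mice differed among themselves: mouse A gave 1.5 points, mouse B 8.93 and mouse C 4.32. Tumor 10 alone had 20.7% (exact 95% binomial interval 18.4% to 23.1%, counting error only), and without it the difference was 2.22 points (exact permutation p = 0.2). It was 2.91 points without mucosa 3, which took mouse B out of the comparison, and 7.61 points without tumor 9. With every barcode thinned to 5000 or 2000 UMIs it was 3.19 and 2.65 points. Expressed as a share of all retained barcodes, of which 16136 of 93871 were epithelial in tumors and 16111 of 25021 in mucosa, the direction turned, with 0.96 points fewer in tumors (exact permutation p = 0.253). A share says nothing of absolute cell numbers.

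**Figure D1:**
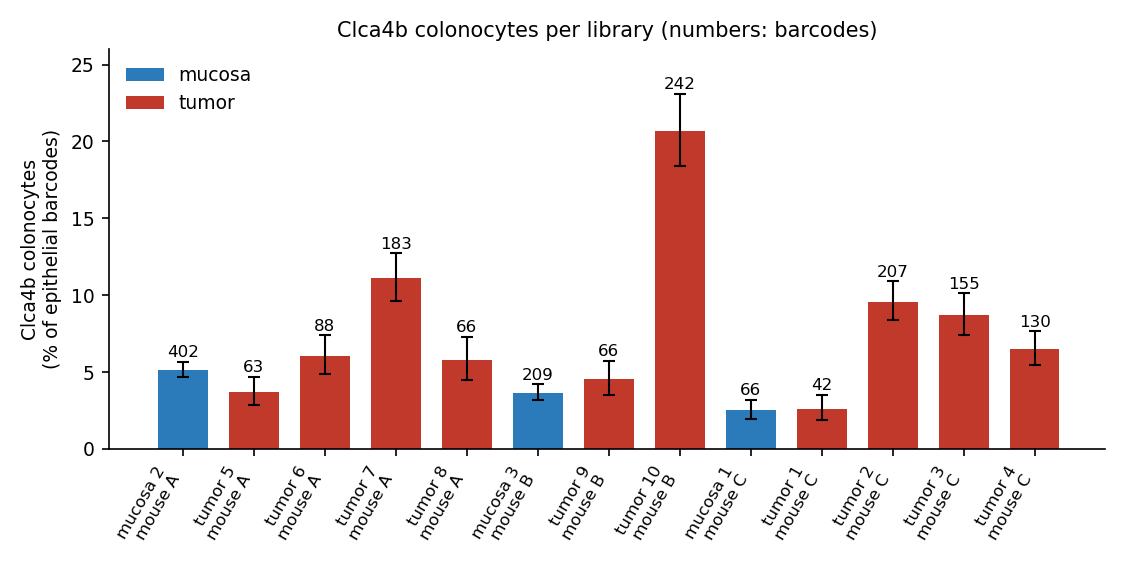
Clca4b colonocytes as a percentage of epithelial barcodes (y axis) in each library (x axis, ordered by mouse), with exact 95% binomial intervals and the number of member barcodes above each bar. Tumor 10 stands at 20.7%, and the other tumors lie between 2.63% and 11.1%, against 2.53% to 5.15% in mucosa.

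Among the genes of the rule, Clca4b carried most of the membership. Its level, in CPM, the UMIs of the gene summed over the members of a library and scaled to the library's summed UMIs in the usual way, was 2195, 1932 and 1192 in mucosa 1 to 3, and in tumors it ran from 1197 to 2873 with a median of 1525. Tgm3 was at 156, 246 and 361 CPM in mucosa and at 5.10 to 400 in tumors (median 134). Atp12a was at 510, 183 and 351 CPM in mucosa and at 19.9 to 564 in tumors (median 158). These levels chose the cells and are given without a test. Tumor 6 stood apart, with the lowest Tgm3 and Atp12a of all libraries, so that its 88 members were found through Clca4b nearly alone. Across classes, Clca4b reached at most 163 CPM in the Cyp2c55 colonocytes of mucosa and at most 9.41 CPM in other tumor epithelium, here and below the epithelial barcodes that were neither members, Cyp2c55 colonocytes nor goblet barcodes (10 or more Muc2 UMIs).

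Saa1, an acute-phase apolipoprotein that binds retinol and bacterial products, was the strongest of the naming genes that the rule did not use. Saa1 stood at 9336, 9381 and 4999 CPM in the members of mucosa 1 to 3 and at 1018 to 4713 CPM in the tumors (median 3001). Every tumor lay below every mucosa library, the closest being tumor 7 at 4713 CPM. Saa1 fell in tumor members by 1.85 on the log2 scale (SE 0.40, edgeR quasi-likelihood, adjusted p = 0.0033). When the tumors of each mouse were summed and the mouse was blocked, the adjusted p was 0.0176. The log2 change of Saa1 was -1.23 in members thinned to 5000 UMIs and -2.53 in members with under 10% mitochondrial UMIs. In the thinned counts every cell was cut to 5000 UMIs. A UMI of Saa1 was found there in 65.0% of 1061 tumor members and 91.7% of 556 mucosa members. Saa1 was not confined to the members. Of the Cyp2c55 colonocytes (defined below), 54.7% of 2283 in mucosa and 81.8% of 11 in tumors held a UMI of it at that depth. In the immune barcodes of tumors 0.730% did. Thinning left out 181 tumor and 121 mucosa members of lower depth, and the unthinned levels are those given above. Per member the spread was wide, since the 10th, 50th and 90th percentiles of Saa1 in thinned tumor members were 0, 4 and 72 UMIs, and in mucosa members 1, 34 and 113.

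The neighbouring copy was nearly silent in the same cells. Over all members there were 126321 UMIs of Saa1 and 241 of Saa2, a ratio of 524, and the ratio in single libraries ran from 215 to 1869. The last 300 bases of the longest transcripts of both genes, the end that this assay reads, are 92.4% identical, so how reads between them were assigned can change the small Saa2 count. Saa2 was also lower in tumor members by 1.42 on the log2 scale, from a mean of 14.5 to 6.47 CPM (edgeR adjusted p = 0.037). Saa3, the third copy, was at a mean of 4.30 CPM in mucosa and 6.96 CPM in tumors and did not pass. The stretches printed above thus stand before genes whose UMIs differed by at least 215 times in every library.

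Ly6g did not pass the test between tissues. It was at 610, 1447 and 971 CPM in the members of mucosa 1 to 3 and at 435 to 1359 CPM in tumors (median 714), and the groups overlapped. The fitted change was a fall of 0.68 on the log2 scale (SE 0.32, edgeR adjusted p = 0.125), and without tumor 6, which had the highest tumor value of 1359 CPM, it fell by 0.84 (adjusted p = 0.044). A UMI of Ly6g was found in 70.8% of thinned tumor members and in 84.2% of thinned mucosa members. At that depth, 63.6% of 11 Cyp2c55 colonocytes of tumors and 9.37% of 2283 of mucosa held one. The median was 4 UMIs in those 11 and 2 UMIs in tumor members. Immune barcodes as a whole held 2.06 to 12.3 CPM in mucosa and 75.2 to 127 CPM in tumors; neutrophils were not separated from them. Other tumor epithelium held 10.2 to 59.6 CPM. Immune barcodes are those with a Ptprc UMI and no UMI of Epcam, Krt8 or Krt18.

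**Figure D2:**
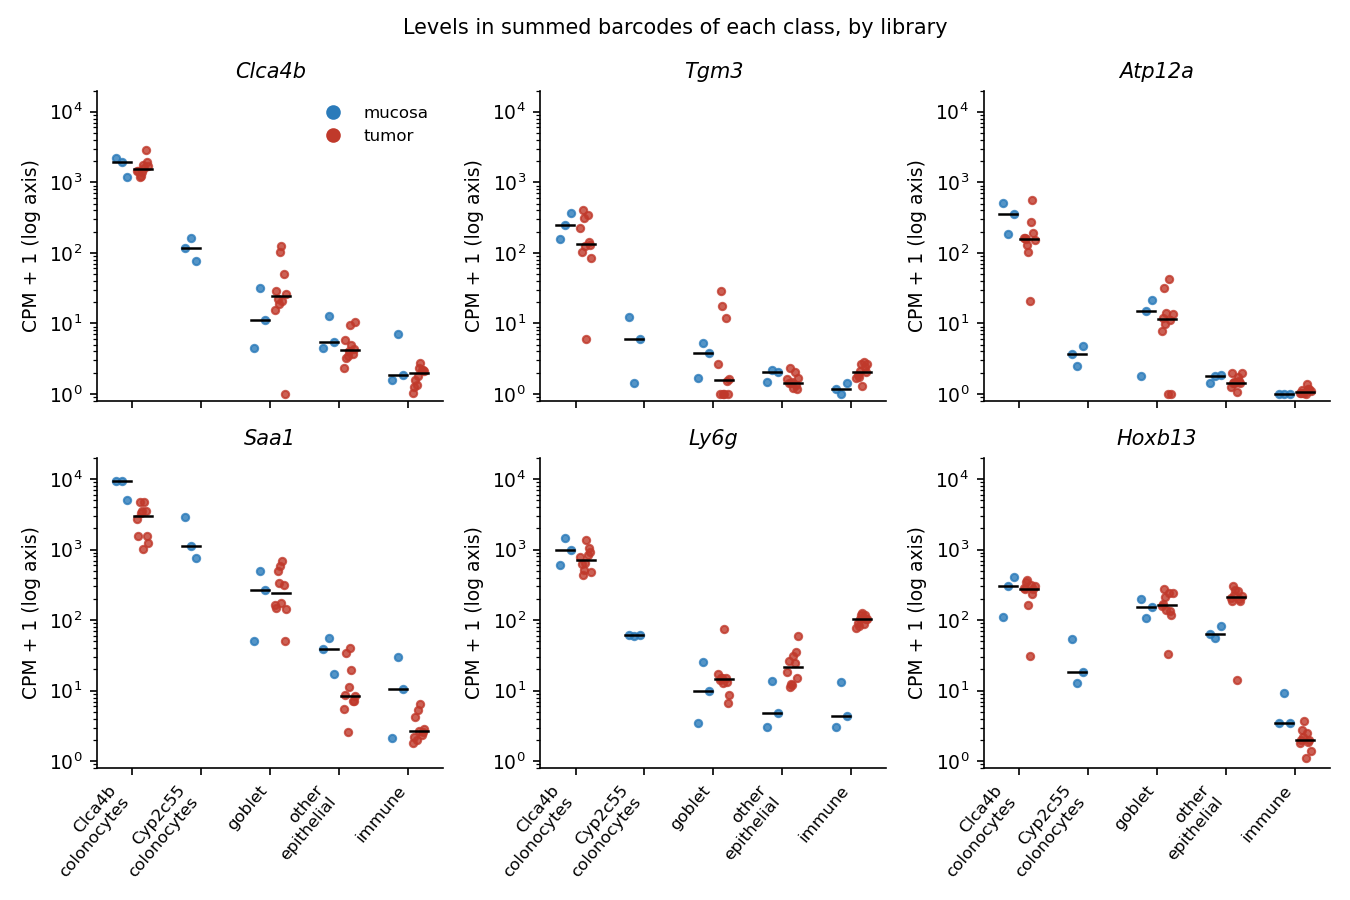
Levels of 6 genes (y axis, CPM + 1 on a log axis) in barcodes summed by class (x axis), 1 point per library, with mucosa in blue, tumors in red and black bars at the medians; the tumors held too few Cyp2c55 colonocytes to plot. Among the classes plotted, Saa1 and Ly6g are highest in Clca4b colonocytes, and Hoxb13 is also present in other tumor epithelium.

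Within a library, members with more of Clca4b, Saa1 or Ly6g tended to have more of the others among these 3. After thinning to 5000 UMIs, Spearman's rho between Saa1 and Ly6g across members had a median of 0.587 over the 12 libraries with at least 40 such members (0.361 to 0.739). Saa1 and the carbonic anhydrase Car4 gave a median of 0.661 (0.388 to 0.750), Ly6g and Ly6c1 0.542 (0.2 to 0.688), Clca4b and Saa1 0.496 (0.159 to 0.714) and Saa1 and Ly6c1 0.271 (-0.062 to 0.458). The cells of a library share its depth and its free RNA, and these values are given as a description.

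Other members of the same families were read in the same cells. Of the Ly6 genes, Lypd8, a secreted protein that binds flagellated bacteria, was the most abundant: 27305 to 32469 CPM in mucosa members and 12796 to 22086 CPM in tumor members, without overlap. It fell by 1.04 on the log2 scale (edgeR adjusted p = 9.9e-04). Ly6a (Sca-1) was at 3158 to 6569 CPM in mucosa and 1692 to 3700 CPM in tumors and fell by 1.09 (edgeR adjusted p = 0.0024), and Ly6m and Ly6g2 also fell, while Ly6c1 at 174 to 947 CPM in mucosa and 164 to 808 CPM in tumors, Ly6d and Ly6e did not pass. Of the 13 Ly6 genes tested, 0 rose and 5 fell, where over all genes tested between tumor and mucosa members 13.5% rose and 13.9% fell. Of the 5 Clca genes tested besides Clca4b, 1 rose (13.5% of all genes did), Clca3b, with means of 293 CPM in mucosa and 880 CPM in tumors. Clca4a, the closest relative of Clca4b, had means of 741 and 489 CPM and did not pass.

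The nearest epithelial class was set by mirroring the rule, with at least 5 UMIs of Cyp2c55, Tmigd1 and Slc51a that exceeded those of Clca4b, Tgm3 and Atp12a. The mucosa libraries held 2679 of these Cyp2c55 colonocytes and the tumors 11, and the 2 classes in mucosa were compared without a test, since the counts of the same cells sort them. Because Cyp2c55 itself was at 80.9 to 213 CPM in mucosa members and at 0 to 13.8 CPM in tumor members, nothing is read from the number of Cyp2c55 colonocytes in each tissue. Of 2640 genes with at least 50 CPM in either class, 66 were more than 1 log2 unit higher in Clca4b colonocytes in all 3 mucosa libraries and 50 were more than 1 log2 unit lower.

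Fxyd4, a regulator of the sodium pump, was at 15.5, 100 and 131 CPM in the members of mucosa 1 to 3 and at 0 to 0.73 CPM in Cyp2c55 colonocytes. Ly6g followed the same order, with 59.5 to 61.3 CPM in Cyp2c55 colonocytes, as did Ly6c1 (22.5 to 43.3 CPM there). The chemokine genes Ccl7 (5.55, 104 and 48.9 CPM in members) and Cxcl5 (179, 68.1 and 47.1 CPM), the leucine-rich glycoprotein Lrg1 (7.77, 313 and 152 CPM), the whey acidic protein Wfdc18 (175, 94.3 and 76.2 CPM), the tachykinin precursor Tac1 (89.9, 385 and 431 CPM), Gpr137b (61.9 to 87.7 CPM), the cysteine protease inhibitor Csta1 (31.6 to 102 CPM) and the uncharacterised 2310079G19Rik (21.1, 80.7 and 112 CPM) complete the 12 largest, with S100a8. Mucosa 1 was the lowest of the 3 in Fxyd4, Ccl7, Lrg1, Ly6c1 and Tac1.

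S100a8, a calcium-binding protein that neutrophils make in bulk together with S100a9, was at 322, 209 and 180 CPM in mucosa members and at 162 to 1302 CPM in tumor members (median 688). It was at 2.70 to 36.2 CPM in Cyp2c55 colonocytes. The ratio of S100a8 to S100a9 UMIs in members was 72.5, 2.03 and 5.88 in mucosa 1 to 3 and 1.13 to 5.67 in tumors, above the range in immune barcodes, where it was 0.611 to 0.914 in mucosa and 0.555 to 0.900 in tumors. The ratio of mucosa 1 rests on 290 UMIs of S100a8 and 4 of S100a9. The source of the 2 RNAs in the members was not tested.

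Genes on the Cyp2c55 side had the largest ratios in the opposite direction. Car1, the cytosolic carbonic anhydrase, was at 1653, 4737 and 1846 CPM against 2616, 37326 and 36171 CPM. The ileal-type bile acid importer Slc10a2, the retinaldehyde dehydrogenase Aldh1a1, the aldo-keto reductase Akr1c19, the epoxygenase Cyp2c65, the ubiquitin ligase Rnf186, the transcription factor Osr2, Prap1, Pmm1, H2-T3 and Mal were also among the largest on this side. Mucosa 1 again stood apart, since its Cyp2c55 colonocytes numbered 89 and held little Car1, and the log2 ratio of Car1 there was -0.66 against -2.98 and -4.29 in mucosa 2 and 3.

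**Figure D3:**
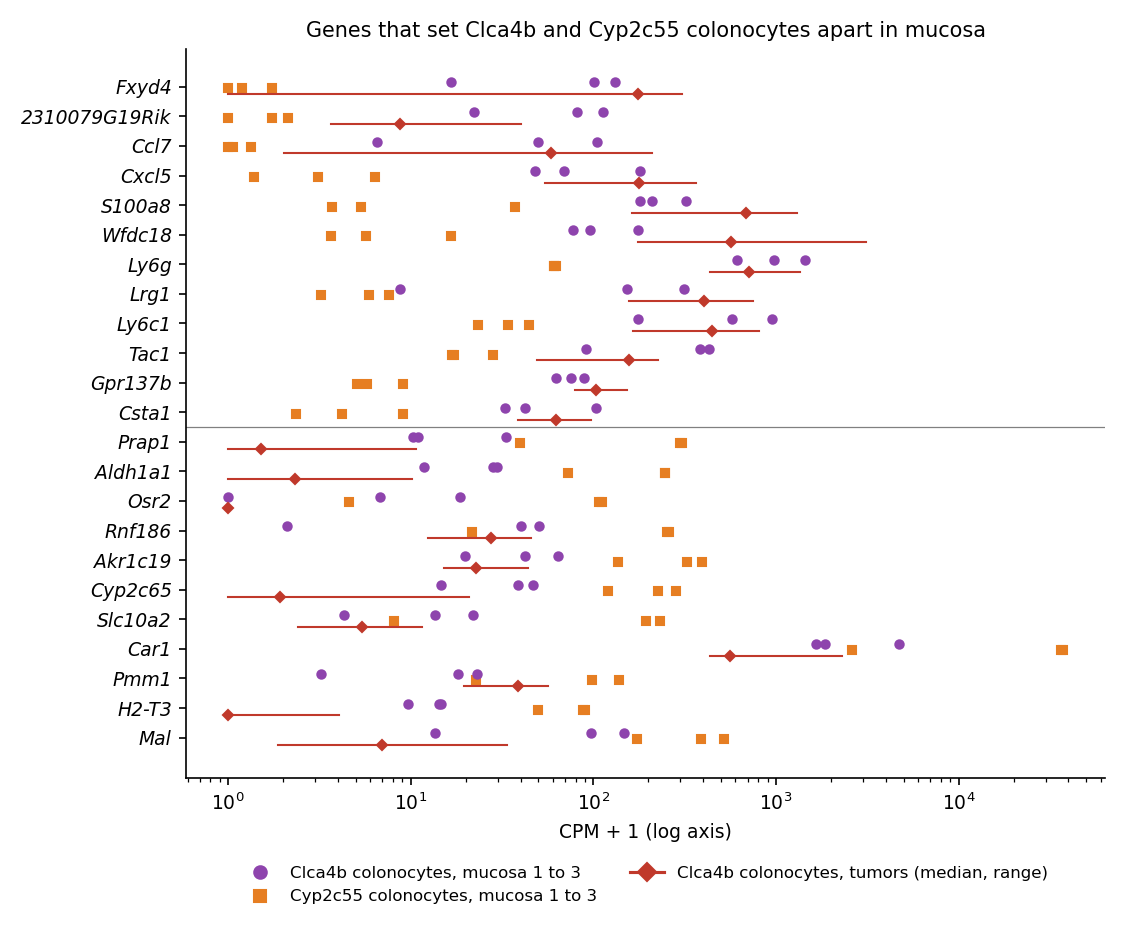
Genes with the largest mean log2 ratios in each direction (those named in the text) between Clca4b and Cyp2c55 colonocytes of the 3 mucosa libraries (x axis, CPM + 1 on a log axis), with the median and range over 10 tumors of Clca4b colonocytes in red. The tumor medians of the upper genes lie nearer to the mucosa Clca4b colonocytes, except for 2310079G19Rik at 7.73 CPM, and among the lower genes Car1 alone has a tumor median above 50 CPM.

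On the log2 scale, the tumor median lay nearer to the mucosa Clca4b colonocytes than to the Cyp2c55 colonocytes for every gene named at either end other than 2310079G19Rik and Pmm1. On the Clca4b side, tumor medians of S100a8, Wfdc18, Lrg1, Fxyd4 and Gpr137b were above every mucosa value. Of the 12 genes on the Clca4b side, 11 had a tumor median above 50 CPM, the exception being 2310079G19Rik. Of those named on the Cyp2c55 side, Car1 alone did, with a median of 558 CPM. Tumor 6 again differed: Fxyd4 was at 0 CPM there.

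The posterior homeobox gene Hoxb13, which marks the most distal gut, was a further gene of the members: 109, 299 and 405 CPM in mucosa 1 to 3, against 53.6, 11.9 and 17.2 CPM in Cyp2c55 colonocytes. In tumor members it ran from 29.6 to 369 CPM with a median of 279. The lowest, tumor 6, was outside the range of the other 9 tumors, which had at least 166 CPM. Hoxb13 did not pass between tissues. In tumors it was not particular to the members. At 5000 UMIs per cell, a UMI of it was found in 64.6% of tumor members and 49.2% of other tumor epithelial barcodes. Of the 15 homeobox genes tested, against 13.5% of all genes higher and 13.9% lower, 3 rose (Hoxa7, Hoxa9 and Hoxa10) and 1 fell, the intestinal determinant Cdx2, which was at 97.7, 96.2 and 120 CPM in mucosa members and at 8.87 to 109 CPM in tumor members (median 26.2), a fall of 2.10 on the log2 scale (edgeR adjusted p = 0.01). Cdx2 in other tumor epithelium was lower still, at 1.62 to 36.8 CPM with a median of 3.42.

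Members of tumors and of mucosa were next compared gene by gene, with the members of each library summed into 1 sample. Of 9974 genes tested, 2735 passed (27.4%), of which 1346 were higher in tumor members (13.5%) and 1389 lower (13.9%) by edgeR's quasi-likelihood test at an adjusted p of 0.05, and the median log2 fold change over all genes was 0.085. For 1969 genes (19.7%) every tumor library lay on the same side of every mucosa library, and 1426 of them also passed the test (14.3%). Settings moved the counts either way. With doublet-scored barcodes removed, 1657 genes were higher and 1683 lower. With the tumors of each mouse summed, which leaves 3 tumor samples, and the mouse as a block, 127 genes were higher and 195 lower, and 309 of these 322 were among the genes called above, all in the same direction. Without mucosa 3, 803 genes were higher. With every member thinned to 5000 UMIs, 553 were higher and 655 lower.

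Car4, Slc26a3, Slc9a3 and Aqp8, which serve salt and water uptake, were among the genes that fell. Car4, the membrane-bound carbonic anhydrase of the colon surface, was at 5235, 3771 and 1915 CPM in the members of mucosa 1 to 3 and at 49.8 to 514 CPM in tumors (median 296), with a wide gap between the groups. It fell by 4.06 on the log2 scale (SE 0.52, edgeR adjusted p = 1.1e-04). Slc26a3, the chloride-bicarbonate exchanger mutated in congenital chloride diarrhoea, was at 580, 359 and 418 CPM in mucosa and 9.24 to 132 CPM in tumors, and fell by 3.44 (SE 0.51, edgeR adjusted p = 2.7e-04). Its partner in salt uptake, the sodium-proton exchanger Slc9a3, was at 290, 68.1 and 107 CPM in mucosa and 0.64 to 34.7 CPM in tumors and fell by 4.33 (SE 0.69), with a log2 change of -3.40 without mucosa 1. The water channel Aqp8 was at 2192, 1675 and 1055 CPM in mucosa and 14.3 to 363 CPM in tumors and fell by 3.86 (SE 0.66). For each of these 4 genes every tumor lay below every mucosa library. In members thinned to 5000 UMIs the log2 changes were -3.22 for Car4, -3.53 for Slc9a3 and -3.16 for Aqp8, and in members with under 10% mitochondrial UMIs they were -5.69, -5.47 and -4.71. With the mouse as a block, the change of Aqp8 was -4.72.

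Of 30 mature colonocyte genes, 24 fell and 0 rose, with a median log2 fold change of -1.29 (19 fell without mucosa 1), and 12 of 30 did not overlap between tissues, against 13.9% lower, 13.5% higher and 19.7% without overlap over all genes, and their summed level was 71131 to 94554 CPM in mucosa members and 33656 to 52680 CPM in tumor members. Among those that fell, Krt20, the keratin of the surface, was at 1423 to 2566 CPM in mucosa and 490 to 1443 CPM in tumors, and the guanylin precursor Guca2a had means of 1412 and 190 CPM. Of 33 ion and water transport genes, 16 fell and 3 rose (median -1.04). Those that rose were the potassium channel Kcnn4, the sodium-potassium-chloride cotransporter Slc12a2, which loads chloride for secretion, and Fxyd3, with means of 6.00, 17.1 and 31.6 CPM in mucosa and 25.4, 73.8 and 196 CPM in tumors. Of the 16 that fell, Car1, Aqp8, Hsd11b2, Car4, Slc26a3 and Slc26a2 were also counted among the 24 mature colonocyte genes. In the thinned counts, a UMI of Car4 was found in 21.6% of tumor members and 71.9% of mucosa members, and one of Slc26a3 in 14.99% and 69.2%. For the name of absorptive colonocytes, these genes were present in most mucosa members, whereas most tumor members had no UMI of Car4, and likewise none of Slc26a3, at that depth.

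Of 28 xenobiotic and steroid metabolism genes, 21 fell and 0 rose (median -1.64). Over all genes, for this and the next lists, 13.9% fell and 13.5% rose. At least 1 UMI of Cyp2c55, Tmigd1 or Slc51a was found in 46.1% of mucosa members and 14.65% of tumor members. Aldh1a1 and Cyp2c65, named above on the Cyp2c55 side, are among the 21. The part of Cyp2c55 colonocyte RNA in the falls was not tested. Cyp2d9, a cytochrome P450 of a family with close copies, was at 142, 78.3 and 53.9 CPM in mucosa members and at 2.42 to 24.0 CPM in tumors and fell by 3.43 (SE 0.50, edgeR adjusted p = 2.6e-04). The carboxylesterase Ces2c had means of 372 and 61.3 CPM and the drug efflux pump Abcg2 202 and 48.6 CPM. Of 14 bile acid and lipid transport genes, 8 fell and 1 rose, the fatty acid synthase Fasn. Fabp2, the intestinal fatty acid binding protein, was at 1224, 661 and 423 CPM in mucosa and at 5.08 to 278 CPM in tumors and fell by 4.44 (SE 0.87, edgeR adjusted p = 0.0020). Fabp6, the bile acid binding protein, was at 167, 777 and 355 CPM in mucosa and at 4.20 to 133 CPM in tumors and fell by 3.87 (SE 0.76). In tumor 6 Fabp2 was at 278 CPM, and the next tumor had 66.0 CPM. The log2 change of Fabp2 was -5.69 without tumor 6, -3.82 without mucosa 1 and -5.48 with the mouse as a block. That of Fabp6 was -3.18 without mucosa 2 and -4.47 without tumor 7, and that of Cyp2d9 was -2.69 in thinned members and -4.47 with under 10% mitochondrial UMIs. Of 18 genes of short-chain fatty acid uptake and ketogenesis, 8 fell, among them the butyrate transporter Slc5a8 (means of 210.2 and 68.7 CPM), and 0 rose.

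The other genes with the largest falls were the renal-type dipeptidase Dpep1 (506, 155 and 179 CPM in mucosa and 1.69 to 60.7 CPM in tumors), the uncharacterised 1810065E05Rik (913 to 3401 and 32.9 to 516 CPM), Sectm1b (213 to 601 and 14.3 to 70.4 CPM), the acetyltransferase-like Nat8f4 (34.0 to 113 and 1.68 to 14.9 CPM) and the interferon-induced Ifit1bl2 (19.8 to 148 and 0.32 to 5.68 CPM). Mucosa 1 was the highest of the 3 for each, and without it the log2 change was -3.48 for Dpep1, -3.71 for 1810065E05Rik, -2.69 for Sectm1b, -2.66 for Nat8f4 and -3.17 for Ifit1bl2. With all libraries these were -4.36, -4.41, -3.47, -3.46 and -4.87. Without tumor 6 that of 1810065E05Rik was -5.03. In thinned members the change was -3.72 for Ifit1bl2, -2.77 for Sectm1b and -2.73 for Nat8f4, and with under 10% mitochondrial UMIs it was -6.16 for Ifit1bl2 and -4.29 for Sectm1b. Nat8f4 and Ifit1bl2 have close copies in the genome, among which reads may have been divided.

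**Figure D4:**
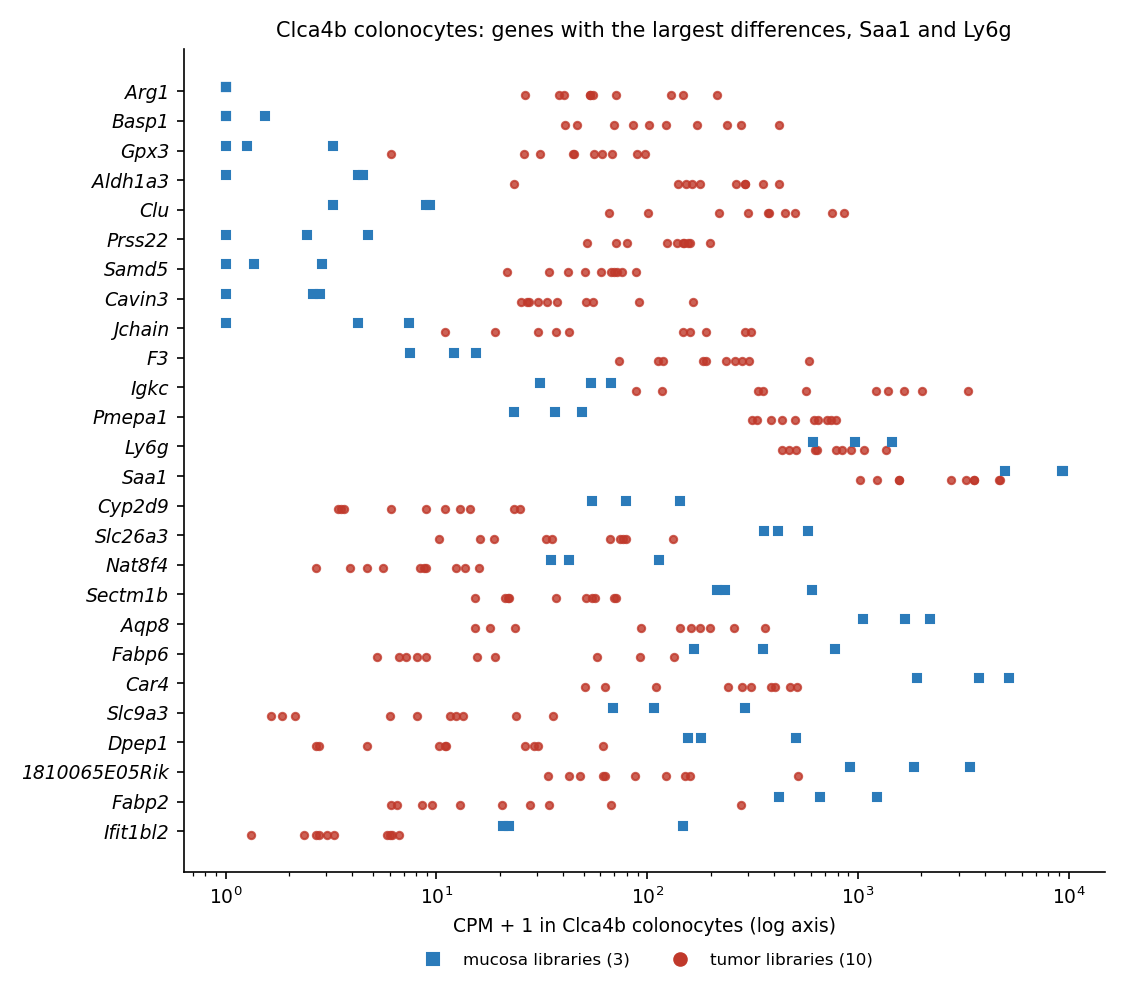
Levels in Clca4b colonocytes (x axis, CPM + 1 on a log axis) of the 12 genes with the largest change in each direction, and of Saa1 and Ly6g, with mucosa libraries as blue squares and tumor libraries as red circles. The 24 genes were taken from those without overlap between tissues, so their separation follows from the choice, and Ly6g overlaps.

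Among the genes that rose, several were far above their level in any mucosa class. Prss22, a serine protease, was at 0, 3.75 and 1.44 CPM in the members of mucosa 1 to 3 and at 50.6 to 198 CPM in tumors (median 142). It rose by 5.50 on the log2 scale (SE 0.59, edgeR adjusted p = 3.3e-05) and was at 4.72 to 37.5 CPM in other tumor epithelium. Aldh1a3, a retinaldehyde dehydrogenase, was at 0, 3.48 and 3.24 CPM in mucosa and at 22.4 to 421 CPM in tumors (median 221), a rise of 6.06 (SE 0.85, edgeR adjusted p = 1.9e-04). It was at 8.85 to 82.7 CPM in other tumor epithelium. Pmepa1, an inhibitor of TGF-beta signalling that TGF-beta itself induces, was at 35.5, 48.0 and 22.3 CPM in mucosa and at 313 to 787 CPM in tumors, a rise of 3.64 (SE 0.41, edgeR adjusted p = 4.9e-05). Gpx3, the secreted glutathione peroxidase, was at 0 to 2.22 CPM in mucosa members, 3 UMIs in all, and at 5.10 to 96.6 CPM in tumors, a pooled ratio of 110 (95% counting interval 37.5 to 534). Mucosa 1 had most of the mucosa UMIs, and the fitted log2 change, which depends on the prior count, was 6.50 with all libraries, 7.74 without mucosa 1 and 5.75 without mucosa 3. Other tumor epithelium held 1.41 to 7.17 CPM of Gpx3.

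Clu, the secreted chaperone clusterin that marks regenerating crypts, was at 2.22, 8.31 and 7.91 CPM in mucosa members and at 64.9 to 857 CPM in tumors (median 376), a rise of 5.57 (SE 0.82, edgeR adjusted p = 2.7e-04). F3, tissue factor, which starts coagulation, was at 11.1, 14.5 and 6.47 CPM in mucosa and at 72.4 to 587 CPM in tumors, a rise of 4.15 (SE 0.65). Samd5 (at most 1.88 CPM in mucosa and 20.5 to 87.4 CPM in tumors) and the caveola protein Cavin3 (at most 1.80 CPM and 24.1 to 163 CPM) rose as well. The folds of Prss22 and Samd5 rest on few mucosa UMIs and were 6.56 and 7.21 on the log2 scale without mucosa 2, and in thinned members F3 rose by 4.86 and Cavin3 by 4.02. Clu and F3 belong to a list of 23 fetal-like regenerative genes tested, of which 11 rose and 1 fell, against 13.5% and 13.9% of all genes (median 1.35, and the same with genes at 0 in mucosa taken at their lower bound). The others that rose included Anxa1 (499 to 622 CPM in mucosa, 822 to 2572 CPM in tumors), S100a11 (means of 559 and 1942 CPM) and Krt7 (59.3 and 269 CPM), and the 1 that fell was Ly6a. Without tumor 6, 9 of these genes rose. Of the 23 tested, 2 were at 0 in mucosa members. They entered the test through the tumor libraries and could not fall, which limits the count of 11.

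Arg1, Basp1, Igkc and Jchain, also among the 12, had a higher median in the immune barcodes of tumors than in tumor members, and the other 8 did not. Arg1, an arginase made by myeloid cells, was at 0 CPM in the members of all 3 mucosa libraries and at 25.3 to 213 CPM in tumor members (median 53.5), at least 208-fold higher against a floor of 3 counts over the mucosa members. In tumors it was at 2.06 to 14.98 CPM in other epithelium and at 241 to 658 CPM in immune barcodes. Basp1 was at 0 to 0.54 CPM in mucosa members, 2 UMIs in all, and at 39.6 to 419 CPM in tumor members, a pooled ratio of 470 (95% counting interval 130 to 3883). Both mucosa UMIs were in mucosa 2, and the fitted log2 change, which depends on the prior count, was 8.72 with it, 11.55 without it and 8.04 without mucosa 3. In tumors there was Basp1 also in the other classes, with 115 to 243 CPM in other tumor epithelium and 365 to 654 CPM in immune barcodes. The immunoglobulin gene Igkc was at 29.96 to 66.5 CPM in mucosa members and 88.0 to 3321 CPM in tumor members, and Jchain at 0 to 6.43 and 9.95 to 310 CPM. Igkc rose by 4.13 (SE 1.03, edgeR adjusted p = 0.0085), and by 2.74 with doublet-scored barcodes removed (adjusted p = 0.052). Jchain rose by 4.64, by 5.45 without mucosa 2 and by 3.16 with doublet-scored barcodes removed. Other tumor epithelium held more of both, with medians of 3541 CPM for Igkc and 519 CPM for Jchain.

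Of 11 leukocyte genes tested, 7 rose and 0 fell (median 2.40), where 13.5% of all genes rose and 13.9% fell, and the summed level of all 23 listed genes was 292 to 410 CPM in mucosa members, 1161 to 3924 CPM in tumor members, 1319 to 9485 CPM in other tumor epithelium and 74915 to 95424 CPM in the immune barcodes of tumors. In mucosa members 3 of the 23, Tyrobp, C1qb and Csf3r, were at 0, and in tumor members none was, Tyrobp being at 2.84 to 19.3 CPM. Tyrobp and C1qb, both among the 7 that rose, entered the test through the tumor libraries, so their rises are not read as a result. Of 15 neutrophil genes, 8 were tested and 3 rose. The part of leukocyte RNA in the other differences was not tested. Hemoglobin RNA varied widely, with the erythrocyte genes at 540 to 14987 CPM in mucosa members and 1.02 to 9496 CPM in tumor members. Of 4 erythrocyte genes tested, 0 passed over libraries and 3 were lower with the tumors of each mouse summed and the mouse as a block. Stromal genes summed to at most 6.76 CPM and enteroendocrine genes to at most 42.0 CPM in tumor and 223 CPM in mucosa members. Goblet genes other than Muc2 summed to 1515 to 2639 CPM in mucosa members and 519 to 850 CPM in tumor members, with 5 of 11 lower. Guca2a, whose means are given above with the mature colonocyte genes, is in this sum and among the 5. The sum therefore does not read goblet RNA alone. Of 12 tuft cell genes listed, only Avil and Alox5ap had enough counts to be tested. Their means were 0.18 and 0.21 CPM in mucosa members and 3.29 and 3.52 CPM in tumor members. They entered the test through the tumor libraries, so that both rose is not read as a result. The tuft list summed to 4.40 to 14.3 CPM in tumor members and to 967 to 1465 CPM in the immune barcodes of tumors. Of 20 dissociation stress genes, 4 rose and 1 fell, near the shares of all genes, among them the orphan receptor gene Nr4a1 at means of 0.58 and 9.51 CPM. Their part in these results was not tested.

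Of 23 antimicrobial and acute-phase genes tested, 4 rose and 7 fell, against 13.5% and 13.9% of all genes (median -0.23), and 2 rose and 5 fell without mucosa 1. Besides Saa1, Saa2 and Lypd8, those that fell were the dual oxidase Duox2 (means of 425 and 209 CPM), its maturation factor Duoxa2 (528 and 242 CPM), the immunoglobulin receptor Pigr (1469 and 1210 CPM) and the lectin Zg16. Those that rose were S100a9, the antiprotease Slpi (12.9 and 100.4 CPM), Wfdc18 and Lyz1. Wfdc18 was at 175, 94.3 and 76.2 CPM in mucosa members and at 174 to 3093 CPM in tumor members (median 567), a rise of 2.73 on the log2 scale (edgeR adjusted p = 0.023), though tumor 6 lay just below mucosa 1, and other tumor epithelium held 474 to 2271 CPM. Reg3b, a bactericidal lectin, ran from 961 to 7429 CPM in mucosa and from 17.1 to 7818 CPM in tumors and did not pass.

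Of 31 interferon and antigen presentation genes, 11 fell and 1 rose, against 13.9% and 13.5% of all genes (median -0.52), and 8 fell and 0 rose without mucosa 1. The major histocompatibility complex class II genes were among those that fell: H2-Aa was at 1931 to 2602 CPM in mucosa members and at 320 to 884 CPM in tumor members, without overlap, a fall of 2.21 (edgeR adjusted p = 1.5e-04). H2-Ab1, H2-Eb1, Cd74, H2-DMa and the class II transactivator Ciita fell as well, as did the class I genes B2m, H2-K1 and H2-D1. The interferon-induced Ifit3 rose, from a mean of 10.1 to 81.6 CPM, while Ifit1, Isg15 and Irf7 did not pass.

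With the tumors of each mouse summed, where 3.08% of all genes tested passed in either direction, fewer genes of the following lists passed: 9 of the mature colonocyte list, 9 of ion and water transport, 13 of xenobiotic and steroid metabolism, 4 of bile acid and lipid transport, 6 of the fetal-like list, 5 of interferon and antigen presentation, 2 of the antimicrobial list and 2 of the Wnt list, and 0 of the Ly6, Clca, short-chain fatty acid, cell cycle and junction lists. All 24 genes with the largest changes passed there. They had been chosen from the same counts as past the test and without overlap, so this is no separate evidence.

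**Figure D5:**
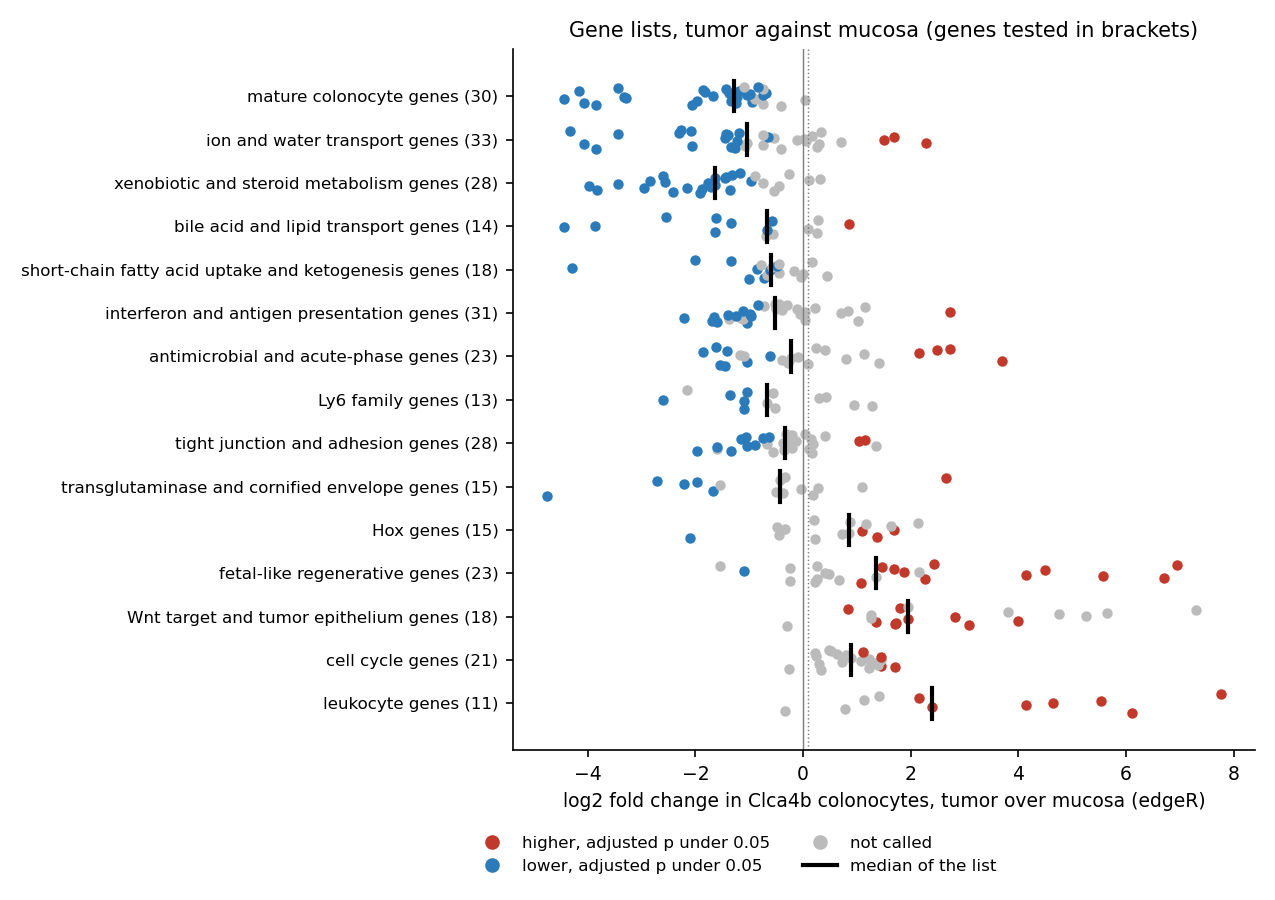
Log2 fold change in Clca4b colonocytes, tumor over mucosa (x axis, edgeR), of each tested gene of 15 lists (y axis, number tested in brackets), with red and blue points past the test, black bars at the list medians and a dotted line at the median of all genes, 0.085. The mature colonocyte list has 24 of 30 genes lower and 0 higher, and the fetal-like list 11 of 23 higher and 1 lower; values of genes at 0 in mucosa depend on the prior count of the fit.

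Most Wnt target genes were lower in the members than in the other epithelial barcodes of the same tumors, here described without a test because the rule sorts the cells. Wnt signalling, which Apc restrains, maintains the crypt base, and its feedback genes Axin2, Notum and Nkd1 are read as its output. Axin2 was at 1.69 to 8.53 CPM in tumor members and at 93.4 to 198 CPM in other epithelium of the same tumors. Notum, a secreted Wnt deacylase, was at 0 to 7.72 CPM against 29.3 to 123 CPM, and the stem cell receptor Lgr5 at 0 to 1.42 CPM against 18.6 to 105 CPM. The list of Wnt target and tumor epithelium genes also holds genes known from these data to be high in tumor epithelium, such as Ptn and Mt4, so its count is no independent evidence. Of its 31 genes, 26 were lower in members than in the other epithelium in each of the 10 tumors, and for 23 every tumor's members lay below every tumor's other epithelium. The exceptions included Ccnd2 (191 to 394 CPM against 131 to 328 CPM) and Ephb2 (26.9 to 60.7 CPM against 30.1 to 49.9 CPM).

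Cdkn2a, the gene at which the inserted element lies, was at 0.82 to 7.78 CPM in tumor members and 28.5 to 92.9 CPM in other tumor epithelium. In mucosa members there was at most 0.27 CPM. Counts of a gene do not read promoter methylation, and no library without the insertion was analysed here.

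Against mucosa members, a smaller set of the same list rose. Of 18 Wnt target and tumor epithelium genes tested, 9 rose and 0 fell, against 13.5% and 13.9% of all genes (median 1.95). The list holds genes known from these data to be high in tumor epithelium, so this count too is no independent evidence. Genes near 0 in mucosa members, such as Cdkn2a, entered the test through the tumor libraries. Ccnd1 had means of 34.9 and 147 CPM, Ccnd2 71.7 and 294 CPM, Sox9, the crypt transcription factor, 12.2 and 55.1 CPM, and Ephb2 9.02 and 42.9 CPM, and Rnf43, Cd44, Mmp7, Bambi and Cdkn2a rose to lower levels. Sox9 was at 6.66 to 16.2 CPM in mucosa members and at 37.9 to 71.4 CPM in tumor members, still below the 112 to 204 CPM of other tumor epithelium. Axin2 did not pass, at 1.11 to 7.24 CPM in mucosa members. Of 21 cell cycle genes, 4 rose (Mki67, Ccna2, Ccnb1 and Tubb5) and 0 fell, a share of higher genes near that of all genes. Mki67 was at 1.11, 26.5 and 27.7 CPM in mucosa members and at 10.1 to 102 CPM in tumor members, and groups overlapped.

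Of 28 tight junction and adhesion genes, 9 fell and 2 rose, where 13.9% of all genes fell and 13.5% rose. Ceacam1 had means of 2126 and 718 CPM, the claudin Cldn7 3718 and 2533 CPM and the galectin Lgals3 9333 and 5200 CPM, while the hemidesmosome integrin chains Itga6 (85.1 and 217 CPM) and Itgb4 (72.9 and 202 CPM) rose. Of 15 transglutaminase and cornified envelope genes other than Tgm3, 5 fell and 1 rose. Sprr2a3, a cornified envelope precursor with near-identical copies Sprr2a1 and Sprr2a2, was at 3731 to 5552 CPM in mucosa members and 357 to 1770 CPM in tumor members and fell by 2.72 (edgeR adjusted p = 2.7e-04), its copies also falling. Tgm2, tissue transglutaminase, rose from a mean of 20.3 to 152 CPM.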

How the data were processed

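Droplet 3' single-cell RNA-seq libraries of 10 tumors and 3 mucosa samples were analysed from the UMI counts deposited by the authors, who per the labels made them with Cell Ranger 6.0.0 on mm10. The deposited counts are raw UMIs per gene and barcode. Cell filters and classes are given with the results. Counts of members were summed per library (at least 20 members, all 13 libraries; 703754 to 6202653 UMIs) and tested with edgeR 4.0.16 (R 4.3.3; quasi-likelihood, TMM, filterByExpr, Benjamini-Hochberg over 9974 genes, threshold 0.05). Shares were tested by exact permutation within mice (scipy 1.17.1). CPM were computed from UMIs summed over the barcodes of a class, relative to the summed UMIs of all genes. The test script was tested on simulated data. Barcodes with the highest doublet scores, up to 0.8% per 1000 barcodes, were kept and removed only as an alternative. Intervals cover counting error only.

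Classes were rebuilt here, since no deposited annotation of cells was used. The members and the gene lists were chosen with earlier results of these data known. The lists share genes, so their counts are not separate results. Besides transport genes, Ceacam1, Ceacam20, Lgals4, Krt20, Fabp2, Lypd8, Saa1 and Guca2a of the mature colonocyte list are each counted in a further list. Genes named were the cell type's markers and rule genes, genes of the lists with large levels or changes, the 12 genes in each direction with the largest log2 fold change among those past the test, without overlap between tissues and with a mean of at least 50 CPM in the higher group, and the 12 in each direction with the largest mean log2 ratio to Cyp2c55 colonocytes. Some genes that met these rules are not reported here. Gene positions come from GENCODE vM21, which held 32158 of 32285 gene identifiers (99.6%). Alternatives covered normalization (RLE), DESeq2 1.42.0, low-count filters, depth, doublets, the mitochondrial limit, the rule's threshold, the mouse as a block and each library left out.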

Additional observations from a re-analysis of the deposited data

Results flagged for a closer look

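In 30 sets of values over the 10 tumors, 6 had a highest tumor whose distance to the next exceeded the 95% limit of Dixon's test. Chance gives this in about 1 in 20 sets only if values are independent and normally distributed. Tumors of 1 mouse are not independent, and 3 of the 6 sets point at tumor 6. The count of 6 is therefore not weighed against that rate. The share of epithelial barcodes that were Clca4b colonocytes was 20.7% in tumor 10, and the next tumor had 11.1%. Tumor 1 had 163 CPM of Cavin3 (next 90.8 CPM) and tumor 9 had 587 CPM of F3 (next 303 CPM). Tumor 6 had 278 CPM of Fabp2 (next 66.0 CPM), 516 CPM of 1810065E05Rik (next 158 CPM) and 60.7 CPM of Dpep1 (next 29.3 CPM), 3 genes that fell in tumor members as a whole. All 3 remained past the edgeR test in every fit that left out 1 library.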

How the results depend on the processing

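The difference in share of epithelial barcodes, 4.92 points, ran from 2.22 to 7.61 points with 1 library left out and was 4.14 points without the replicate block (exact permutation p = 0.189). It was -0.96 points with all retained barcodes as denominator. Leaving out a mucosa library took its whole mouse out of the comparison of shares. The 1346 genes higher and 1389 lower ran from 803 to 1416 and from 1164 to 1565 with 1 library left out. With members thinned to 5000 UMIs, which leaves out cells and cuts the depth of the rest, they were 553 and 655. The parts of cell number and depth were not separated. With tumors of each mouse summed and the mouse as replicate block, a fit with fewer samples, they were 127 and 195. The mouse as replicate block over all libraries gave 1337 and 1403. Tumors correlated with mucosa of their own mouse, as deviations from the group means, at -0.22, 0.12 and -0.25 in mice A, B and C. For the named genes, 621 comparisons with an alternative kept direction and call. Some of these could not differ. Every library had at least 42 members, so a minimum of 10 members repeated the fit of all libraries. A minimum of 50 repeated the fit without tumor 1. Of the named genes, 24 were chosen from the same counts as past the test and without overlap, so the 621 are no separate evidence. Igkc lost its call with doublet-scored barcodes removed, and Ly6g gained one without tumor 6. Libraries of 42 to 66 members limit genes of low level most.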
